A study of Saccharomyces cerevisiae with 16 samples.

Results

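The comparison described here is of mRNA in a DBP1 deletion strain and in its wild-type (WT) counterpart of Saccharomyces cerevisiae, at 6 h after transfer to sporulation medium. It takes 4 of the 16 libraries of the study, chosen by their labels alone. They are deletion replicates 2 and 4 and WT replicates 3 and 4 of the mRNA libraries labelled 6 h. All cells were of the SK1 background, and all were pretreated with 100 µM cycloheximide for 1 min. The WT strain has the number 24955. The deletion strain, number 24950, had DBP1 removed with Cas9. Each genotype was thus 1 strain, so the deletion and any other difference between the strains cannot be told apart. Of the 6679 genes in the table, 5375 had a mean of at least 5 RPKM (reads scaled to gene length and to library depth, so a relative level within a library) over the 4 libraries and were tested. COS6 was just inside that limit, with a mean of 5.00 RPKM, and PAC1 just outside it. The libraries held 7931748 to 9144994 reads assigned to genes, and a gene at 4 to 6 RPKM had a median of 60 reads per library.

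DBP1 encodes a DEAD-box protein, one of a family of enzymes that use ATP to open RNA structure. Its paralogue Ded1 helps the small ribosomal subunit scan structured 5′ leaders during translation initiation, and the functions of the pair overlap in part. Starved diploid yeast cells enter meiosis under the regulator Ime1, pass to the meiotic divisions under the transcription factor Ndt80, and then build spore walls. The labels give ribosome footprint libraries of the same strains, time and replicate numbers, and their values are given here beside the mRNA values.

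The loss of DBP1 and a higher level of the gene next to it, YPL119C-A, were the 2 differences that passed the test. Apart from these, most log2 changes at 6 h, taken over both libraries of each strain, were small. Differences in opposite directions in the deletion libraries cancel in such changes. Of the genes tested, 97.4% changed by less than 0.5 on the log2 scale and 99.6% by less than 1. The spore wall gene DIT1, the stress gene DDR2 and the siderophore transporter gene SIT1 were among those past 1 that did not pass, and each differed from WT far more in deletion replicate 2 than in deletion replicate 4.

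Deletion replicate 2 stood apart from the other 3 libraries. The WT libraries differed from each other by a median of 0.121 on the log2 scale over the genes tested. Deletion replicate 4 differed from WT replicates 3 and 4 by medians of 0.129 and 0.110, no more than about the distance between the WT libraries. Deletion replicate 2 differed from the WT libraries by 0.203 and 0.190, and from deletion replicate 4 by 0.234. Between the deletion libraries 129 genes differed by at least 1, against 25 genes between the WT libraries. The libraries were also placed on the sporulation course, on a scale where the WT mean is 0 at 3 h and 1 at 6 h. The WT libraries stood at 1.00 and 0.996 on that scale, deletion replicate 2 at 0.926 and deletion replicate 4 at 1.03. Deletion replicate 2 thus lay below WT. Deletion replicate 4 lay above it, by more than the scatter of the WT libraries at 6 h. The distance was about the scatter of the WT libraries at 3 h, at 0.029 and -0.029. In these bulk samples, a smaller share of cells at a stage and less RNA per cell cannot be told apart. Whether replicates were grown as separate cultures is not in the labels, and the p-values therefore reflect the spread among 4 libraries, possibly a technical one.

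DBP1 mRNA stood at 32.3 and 40.7 RPKM in WT replicates 3 and 4, and at 1.22 and 0.409 RPKM in deletion replicates 2 and 4. These levels correspond to 459 and 640 reads in WT and to 20 and 6 reads in the deletion. Both deletion libraries were far below both WT libraries, as the labels require. Over the summed reads, the deletion held 2.28% of the WT level (95% exact binomial interval 1.48 to 3.36%), with intervals on reads covering counting error only. DBP1 fell, and on the scale of log2(RPKM + 1), which understates the change of low genes, its log2 change was -4.40 (SE 0.30, 95% interval -5.10 to -3.69, adjusted p = 0.0099, limma with Benjamini-Hochberg adjustment). It was 1 gene lower of 5375, or 0.0186%. DBP1 passed the filter on low values through the WT libraries. Without WT replicate 3 or 4 the adjusted p in limma was 0.0524 and 0.0612, with log2 changes of -4.56 and -4.23.

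YPL119C-A was the gene that rose, a small reading frame with no function in the annotation. It lies next to DBP1 on the 3′ side and on the same strand, in the RefSeq gene order of chromosome XVI. Its mRNA level was 59.6 and 60.7 RPKM in WT replicates 3 and 4, and 160 and 159 RPKM in deletion replicates 2 and 4. Within each strain the libraries were nearly equal, and the groups lay wide apart. Deletion replicates 2 and 4 gave the same picture here, unlike at most genes with large differences. The log2 change was 1.40 (SE 0.13, 95% interval 1.09 to 1.70, adjusted p = 0.036, limma), again 1 gene of 5375, or 0.0186%. By summed reads, 202 in WT and 557 in the deletion, the level was 2.66-fold higher (95% exact binomial interval 2.26 to 3.14).

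The call of YPL119C-A depended on settings that left its size in place. In limma, its adjusted p was 0.0549 with no filter on low values, 0.167 without the trend, 0.146 by limma-voom on recovered reads, and 0.516 and 0.315 without WT replicate 3 or 4, with log2 changes from 1.38 to 1.41 in all of these. Which strand was counted is not given in the sources used here, and reads of transcripts that overlap a gene on either strand may be counted with it.

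Per length, the mean gain of YPL119C-A was 99.7 RPKM and the mean loss of DBP1 35.6 RPKM. The level that YPL119C-A had in the deletion at 6 h was nearer to its WT level at 3 h, 203 and 169 RPKM in replicates 3 and 4. The deletion mRNA library labelled 3 h replicate 4 held 191 RPKM, and the one labelled 3 h replicate 2, which went against its label with a position of 0.913 on the sporulation course, held 144 RPKM. Between 3 h and 6 h the WT values of both neighbours were lower at the later time, with DBP1 at 156 and 161 RPKM at 3 h. The difference in time course between the strains was not tested.

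At 6 h, footprints on YPL119C-A differed in the same direction as its mRNA, and by more. WT replicates 3 and 4 held 1 and 2 footprint reads at 6 h, and deletion replicates 2 and 4 held 39 and 29. Both deletion libraries were above both WT libraries. In the footprint fit, YPL119C-A and DBP1 were the 2 genes called of 4974, or 0.0402%. Each passed the filter on low footprint values through the strain in which it was high, so that its call there adds no support. The log2 change of footprints was 3.70 (SE 0.30) for YPL119C-A and -6.69 (SE 0.21) for DBP1. At 3 h the YPL119C-A footprint reads were 0 and 0 in WT replicates 3 and 4. They were 63 and 30 in the deletion libraries labelled replicates 2 and 4. Its 3 h mRNA in deletion replicate 4, 191 RPKM, lay between the WT values of 203 and 169 RPKM. The footprint difference was thus also present where mRNA was not higher, and its cause was not tested.

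The other genes of the region stayed near their WT level. Among the 10 genes on each side of DBP1, the 19 other than YPL119C-A were all tested, with log2 changes from -0.22 to 0.32 and a median of 0.0035, and limma called none. The groups did not overlap at 1 gene above WT and at 1 below it, where 10.6% and 13.0% of all genes tested did so. MRP51, a mitochondrial ribosomal protein gene on the 5′ side of DBP1, stood at 165 and 154 RPKM in WT and at 124 and 151 RPKM in deletion replicates 2 and 4. Its deletion values were both below WT, with a log2 change of -0.22 (SE 0.15, 95% interval -0.57 to 0.13). VPS30, an autophagy and vacuolar sorting gene on the far side of YPL119C-A, stood at 33.1 and 35.5 RPKM in WT and at 37.5 and 30.7 RPKM in the deletion. Its groups overlapped, with a log2 change of -0.01 (SE 0.16, 95% interval -0.39 to 0.36).

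**Figure D1:**
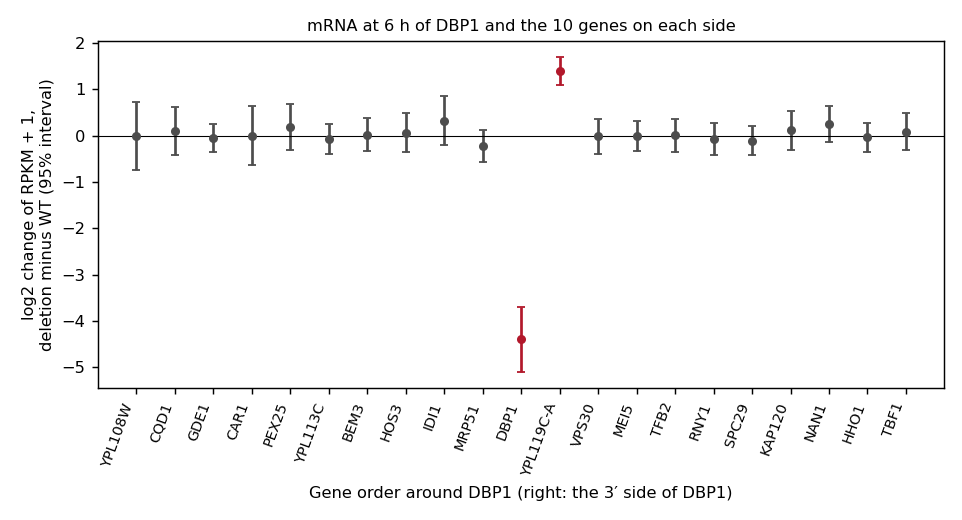
The log2 change of mRNA (deletion minus WT, on the scale of log2(RPKM + 1), points with 95% intervals) is plotted for DBP1 and the 10 genes on each side, in gene order. DBP1 at -4.40 and YPL119C-A at 1.40 (red) stand apart from the other 19 genes, which lie between -0.22 and 0.32.

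The paralogue DED1 had almost the same mRNA level in all 4 libraries. It stood at 17.0 and 19.4 RPKM in WT replicates 3 and 4 and at 17.7 and 17.0 RPKM in deletion replicates 2 and 4. The groups overlapped, and the log2 change was -0.06 (SE 0.16, 95% interval -0.45 to 0.33). Per length, WT cells thus held more DBP1 mRNA than DED1 mRNA at this time. Footprints on DED1 were 103 and 96.0 RPKM in WT, and 165 and 107 RPKM in deletion replicates 2 and 4. The footprint values of the deletion lay above WT, as for 9.17% of genes tested in footprints, but the log2 change of 0.42 (SE 0.22, adjusted p = 1.00, limma) did not pass, and deletion replicate 4 was close to WT.

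The list of DEAD-box helicase genes holds DED1 but not DBP1. Its median log2 change was 0.12 over the 17 tested of 25, against -0.002 over all genes. The median was 0.28 in deletion replicate 2 and -0.03 in deletion replicate 4, each against the WT mean. In 4 of the 17 the deletion lay above WT and in 2 below (10.6% and 13.0% of all genes). Limma called none, with none under 0.05 before adjustment. DBP8, a helicase of ribosome assembly, had the smallest p of the list, at 6.32 and 5.07 RPKM in WT and at 14.2 and 6.62 RPKM in the deletion (log2 change 0.69, SE 0.35). The high value was that of deletion replicate 2. DHH1, the helicase that activates decapping, stood at 67.8, 72.9, 65.1 and 77.5 RPKM in WT replicates 3 and 4 and deletion replicates 2 and 4, so its groups overlapped.

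Translation initiation factors gave no called gene in limma, and none under 0.05 before adjustment, among the 26 tested of 29. The median log2 change was 0.02, with the deletion above WT in 2 genes and below it in 4 (10.6% and 13.0% of all genes). CAF20, a protein that binds eIF4E and inhibits cap-dependent translation, had 24.9 and 19.0 RPKM in WT and 62.4 and 25.8 RPKM in the deletion (log2 change 0.86, SE 0.38). Both deletion values were above WT, but deletion replicate 4 was only just so. CDC33, which encodes the cap-binding factor eIF4E itself, stood at 111 and 101 RPKM in WT and at 160 and 93.4 RPKM in deletion replicates 2 and 4, one on each side of WT. TIF4631, which encodes the scaffold eIF4G1, had a log2 change of -0.06 (SE 0.16, 95% interval -0.45 to 0.33).

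Across all 5375 genes, limma called 2, or 0.0372%. Before adjustment 40 genes were higher with p under 0.05 (0.744%) and 44 lower (0.819%). The median absolute log2 change was 0.0950 and the 95% intervals reached a median of 0.40 to each side. For 5059 genes, or 94.1%, the whole 95% interval lay within 1 in either direction. At least 1 was reached by 19 genes, 12 higher and 7 lower. Of the 19, 12 had a mean under 20 RPKM, and in 14 the deletion libraries themselves differed by at least 1. Small changes were seen at every level, with a median absolute change of 0.123 at 5 to 20 RPKM, 0.0893 at 20 to 100 RPKM and 0.0804 at 100 RPKM or more.

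The number of calls turned on single libraries. By limma-voom on the recovered reads of all 4, DBP1 was the only call, with 59 genes under 0.05 before adjustment. With deletion replicate 2 as the lone deletion library, assumed to vary like WT, limma called 105 genes (1.95%), 78 higher (1.45%) and 27 lower (0.502%). Among the 105, of genes named here that did not pass with all libraries, were YDL218W, SNA4, DIT1, FMP45, SDD1, DDR2, YLR012C, CAF20, SHC1, ARO4, DBP2, NOP1, HSP12 and COX17 (higher) and MFA1, GPM1 and SIT1 (lower). With deletion replicate 4 as the lone deletion library it called 4 genes. These were DBP1, YPL119C-A, YAL037C-A (adjusted p = 0.039) and the metallothionein gene CUP1-1 (adjusted p = 0.0092), the last 2 named after their values were seen. YAL037C-A stood at 15.3 and 20.7 RPKM in WT and at 13.3 and 3.70 RPKM in deletion replicates 2 and 4. CUP1-1 stood at 9.01 and 9.05 RPKM in WT and at 13.9 and 0 RPKM in the deletion. At both genes the low value was in deletion replicate 4 alone. Both levels were low, with means over the libraries of 13.2 RPKM for YAL037C-A and 7.98 RPKM for CUP1-1. The reads behind them are not given here. Without WT replicate 3 no gene was called, with 40 genes under 0.05 before adjustment, and without WT replicate 4 the call was YPR160W-A, which stood at 0 RPKM in WT replicate 3 and 32.6 RPKM in WT replicate 4 (named after its values were seen).

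**Figure D2:**
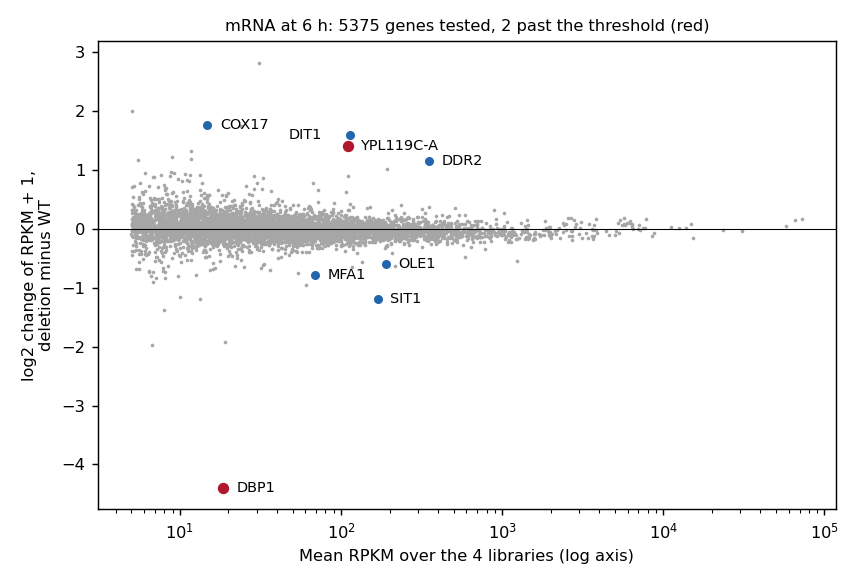
Each point is 1 of the 5375 genes tested, with its mean RPKM over the 4 libraries (log axis) and its log2 change of mRNA (deletion minus WT). The 2 genes past the threshold are red, and 6 named genes that did not pass are blue, with COX17 highest at 1.76 and SIT1 lowest at -1.20.

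The genes with higher values in the deletion that are described next did not pass (adjusted p = 1.00 for each, limma). DIT1, an enzyme of the dityrosine layer of the spore wall, stood at 58.8 and 37.2 RPKM in WT replicates 3 and 4, and at 284 and 71.1 RPKM in deletion replicates 2 and 4. Both deletion libraries were above WT, replicate 2 by far the more (log2 change 1.59, SE 0.58). Its footprints were arranged alike, at 34.1 and 41.5 RPKM in WT and 243 and 76.5 RPKM in the deletion.

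DIT2, which acts in the same pathway as DIT1, stood at 141 and 121 RPKM in WT and at 201 and 144 RPKM in the deletion (log2 change 0.37, SE 0.19). DDR2, a gene of the general stress response, had 216 and 178 RPKM in WT and 769 and 248 RPKM in the deletion. Again both deletion libraries were above WT, with the larger excess in replicate 2 (log2 change 1.15, SE 0.46). FMP45, a cell cortex protein gene, stood at 17.0 and 21.6 RPKM in WT and at 52.4 and 25.0 RPKM in the deletion (log2 change 0.89, SE 0.33).

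Genes without a known role were also in this set. YDL218W stood at 13.0 and 6.12 RPKM in WT and at 60.2 and 17.1 RPKM in deletion replicates 2 and 4 (log2 change 1.74, SE 0.56). YLR012C stood at 146 and 95.5 RPKM in WT and at 372 and 155 RPKM in the deletion (log2 change 1.02, SE 0.40). In both genes deletion replicate 4 was near the higher WT library. Footprints on YDL218W and YLR012C had log2 changes of 2.08 (SE 0.49) and 1.36 (SE 0.49), both mainly from deletion replicate 2. YDL218W footprints stood at 6.76 and 11.9 RPKM in WT and at 73.8 and 23.0 RPKM in deletion replicates 2 and 4. YLR012C footprints stood at 53.5 and 122 RPKM in WT and at 340 and 129 RPKM in the deletion.

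Some other higher genes differed less but more evenly between the deletion libraries. YMR084W stood at 21.8 and 23.1 RPKM in WT and at 37.2 and 30.7 RPKM in the deletion (log2 change 0.57, SE 0.16). SHH3, a mitochondrial membrane protein gene related to the succinate dehydrogenase subunit gene SDH3, stood at 36.1 and 31.3 RPKM in WT and at 51.9 and 44.2 RPKM in the deletion (log2 change 0.50, SE 0.16). PTH1, a mitochondrial peptidyl-tRNA hydrolase gene, stood at 16.2 and 18.7 RPKM in WT and at 22.8 and 26.2 RPKM in the deletion (log2 change 0.47, SE 0.17). In these 3 genes no deletion library reached down to WT. The ribosomal protein gene RPL36A had a log2 change of 0.47 (SE 0.18). SNA4, a vacuolar membrane protein gene, and SDD1 had log2 changes of 0.68 (SE 0.22) and 0.66 (SE 0.25), in both more from deletion replicate 2, at 49.1 and 112 RPKM, than from deletion replicate 4, at 31.3 and 66.8 RPKM.

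Of the lower genes that did not pass, MFA1 ranked first by limma (adjusted p = 1.00). It encodes the precursor of the mating pheromone a-factor. MFA1 mRNA stood at 91.5 and 82.7 RPKM in WT replicates 3 and 4 and at 49.3 and 50.3 RPKM in deletion replicates 2 and 4. The libraries of each strain were close, and the groups did not overlap (log2 change -0.79, SE 0.14, 95% interval -1.11 to -0.47). The gene is short, so these levels rest on 37, 37, 23 and 21 reads.

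MFA2, which encodes the same pheromone, stood at 8.85 and 4.00 RPKM in WT and 21.1 and 12.9 RPKM in the deletion. It differed in the other direction from MFA1 (log2 change 1.32, SE 0.37) and did not pass in limma. Its mean over the libraries, 11.7 RPKM, was well below the MFA1 levels, and its reads are not given here. OLE1, the fatty acid desaturase gene, stood at 270.0 and 192 RPKM in WT and at 151 and 147 RPKM in the deletion. Both deletion libraries were below WT by a similar amount (log2 change -0.61, SE 0.18), and footprints on OLE1 had a log2 change of -0.64 (SE 0.18).

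GPM1, the phosphoglycerate mutase gene of glycolysis, stood at 80.9 and 74.3 RPKM in WT and at 25.7 and 60.9 RPKM in deletion replicates 2 and 4 (log2 change -0.95, SE 0.35). PDC1, the main pyruvate decarboxylase gene, stood at 26.7 and 25.4 RPKM in WT and at 16.8 and 21.2 RPKM in the deletion (log2 change -0.44, SE 0.17). For both, deletion replicate 4 was nearer to WT. The ribosomal protein genes RPP1B and RPL41B had log2 changes of -0.53 (SE 0.16) and -0.60 (SE 0.22). RPL41B rested on only 7 and 5 reads in WT and on 4 and 4 reads in the deletion. The ubiquitin-like protein gene RUB1 had a log2 change of -0.40 (SE 0.15), IRC4 one of -0.46 (SE 0.16) and YDR445C one of -0.57 (SE 0.17).

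**Figure D3:**
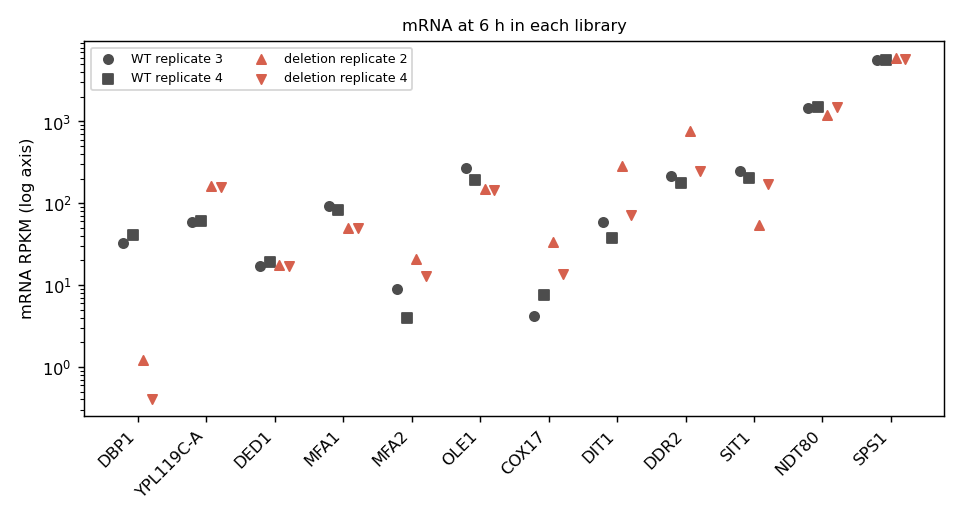
Points give the mRNA level (RPKM, log axis) of 12 named genes in each of the 4 libraries, WT replicates 3 and 4 in grey and deletion replicates 2 and 4 in red. At YPL119C-A and MFA1 the libraries of a strain coincide, whereas at DIT1, DDR2 and SIT1 deletion replicate 2 (284, 769 and 53.9 RPKM) lies far from the other 3.

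**Figure D4:**
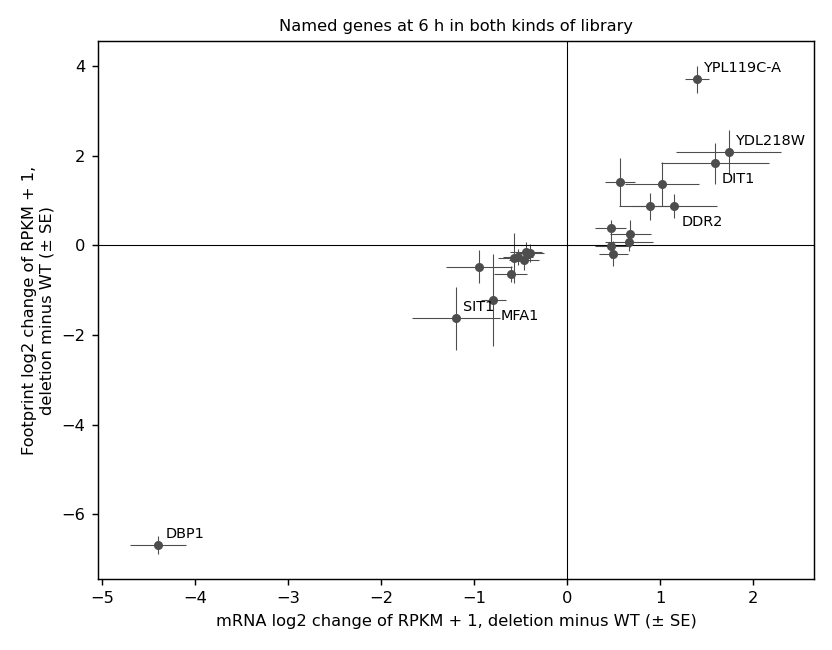
For genes named by their p or size of change, the log2 change of mRNA is plotted against that of footprints at 6 h (deletion minus WT, points with SE). DBP1 (-4.40 and -6.69) and YPL119C-A (1.40 and 3.70) passed in both, and the rest passed in neither. Each of these 2 genes passed the filter on low footprint values through the strain in which it was high. Its footprint call therefore adds no support.

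Copper and iron genes were the list with the lowest median, -0.24 over the 25 tested of 27, and limma called none of them, with 1 gene higher and 1 lower before adjustment. The median was -0.28 in deletion replicate 2 and -0.07 in deletion replicate 4. The deletion lay above WT in 2 and below it in 5 (10.6% and 13.0% of all genes). SIT1, a transporter of iron bound to siderophores, stood at 245 and 203 RPKM in WT and at 53.9 and 173 RPKM in deletion replicates 2 and 4 (log2 change -1.20, SE 0.47). Replicate 2 was far below the rest.

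FET3, the multicopper oxidase of iron uptake, had a log2 change of -0.71 (SE 0.31). COX17, a copper chaperone gene for cytochrome c oxidase, went the other way, at 4.20 and 7.60 RPKM in WT and 33.5 and 13.8 RPKM in the deletion (5, 10, 46 and 17 reads). Its log2 change of 1.76 (SE 0.42) was not seen in footprints, which had a log2 change of -0.63 (SE 0.25). CTR1, the copper importer gene, stood at 201 and 247 RPKM in WT and at 229 and 275 RPKM in the deletion, with the groups overlapping.

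Meiotic genes were at nearly the same level in the strains on average, with the deletion libraries on opposite sides of WT. The 34 early meiotic genes, all tested, had a median log2 change of 0.09, made of 0.40 in deletion replicate 2 and -0.22 in deletion replicate 4. Against the WT mean, 32 of the 34 were higher in replicate 2 and 1 in replicate 4. Of the 5375 genes tested, 3034 were higher in replicate 2 and 2134 in replicate 4. The groups failed to overlap in only 2, both lower (over all genes, 13.0% lower and 10.6% higher). IME1, the regulator of entry, stood at 170 and 201 RPKM in WT and at 236 and 152 RPKM in deletion replicates 2 and 4. DMC1, the meiotic recombinase gene, stood at 616 and 641 RPKM in WT and at 802 and 525 RPKM in the deletion. In both genes replicate 2 was above and replicate 4 below both WT libraries. IME2, a kinase gene downstream of IME1, was steadier, at 1363 and 1346 RPKM in WT and 1328 and 1303 RPKM in the deletion.

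Middle meiotic genes, which depend on Ndt80, showed the reverse order. Over all 43 the median was -0.21 in deletion replicate 2 and 0.02 in deletion replicate 4, with a median log2 change of -0.09. The deletion lay above WT in 2 and below it in 7 (10.6% and 13.0% of all genes). NDT80 itself stood at 1455 and 1522 RPKM in WT and at 1216 and 1503 RPKM in the deletion, replicate 2 being the lowest (log2 change -0.14, SE 0.13). SPS1, a kinase gene of spore formation, stood at 5589 and 5695 RPKM in WT and 5901 and 5871 RPKM in the deletion. On the sporulation course, a measure over 5271 genes that include meiotic genes, replicate 2 stood at 0.926 and replicate 4 at 1.03, and the part of that position in these differences was not tested. Footprints gave medians of 0.39 and -0.23 for early genes and -0.24 and 0.04 for middle genes in deletion replicates 2 and 4.

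Late sporulation and spore wall genes had a median of 0.00 over the 17 tested of 18, with the deletion above WT in 5 and below it in 2 (10.6% and 13.0% of all genes). Before adjustment, DIT1 was the 1 gene under 0.05, and limma called none. The largest differences were higher ones, DIT1 as above and SHC1, an activator of chitin synthesis in spore walls, at 81.2 and 81.2 RPKM in WT and 179 and 87.6 RPKM in the deletion (log2 change 0.62, SE 0.30). LDS2, an outer spore wall gene, had a log2 change of 0.03 (SE 0.10).

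Ribosome biogenesis factors had the highest median among the lists, 0.19 over the 64 tested of 99. It was made of 0.40 in deletion replicate 2 and -0.03 in deletion replicate 4, so the median was not shared by the deletion libraries. The deletion lay above WT in 14 of the 64 and below it in 2 (10.6% and 13.0% of all genes). With 1 gene under 0.05 before adjustment, none was called in limma. NOP53, an assembly factor of the large subunit, stood at 6.69 and 10.3 RPKM in WT and at 15.6 and 11.6 RPKM in the deletion (log2 change 0.63, SE 0.26). In footprints the medians were 0.37 and -0.18 in deletion replicates 2 and 4.

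Cytosolic ribosomal protein genes had a median log2 change of -0.02 over the 136 tested of 138. The medians were 0.12 in deletion replicate 2 and -0.15 in deletion replicate 4. The 136 include RLP7, which is not itself a ribosomal protein gene (log2 change -0.30, SE 0.36). The groups did not overlap at 10 genes above and 14 below WT (10.6% and 13.0% of all genes). Before adjustment, 2 genes in each direction were under 0.05, with none called in limma. Many of these genes have near-identical copies, so reads may be shared or lost between copies such as RPL36A and its partner. Mitochondrial ribosomal protein genes had a median of -0.10 over all 75, with medians of -0.18 in deletion replicate 2 and -0.02 in deletion replicate 4. The 75 include MET13, which is not a ribosomal protein gene (log2 change 0.11, SE 0.23). The deletion was below WT in 20 of the 75 and above it in 2 (13.0% and 10.6% of all genes). None was called or under 0.05 before adjustment. RSM27 stood at 52.6 and 57.6 RPKM in WT and 36.4 and 51.5 RPKM in the deletion (log2 change -0.34, SE 0.19).

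Respiration and carbon metabolism differed little. The 41 nuclear-encoded oxidative phosphorylation genes had a median of -0.04, with the deletion below WT in 7 and above it in none (13.0% and 10.6% of all genes), and none was called in limma or under 0.05 before adjustment. In ATP15, an ATP synthase subunit gene, the levels were 545 and 580 RPKM in WT and 495 and 471 RPKM in the deletion (log2 change -0.22, SE 0.11). The 25 genes of the TCA and glyoxylate cycles and gluconeogenesis had a median of -0.10. The deletion lay below WT in 6 and above it in 1 (13.0% and 10.6% of all genes). MLS1, malate synthase of the glyoxylate cycle, stood at 341 and 366 RPKM in WT and at 272 and 296 RPKM in the deletion (log2 change -0.31, SE 0.12). It was the 1 gene of its list under 0.05 before adjustment, and both deletion libraries were below WT. ICL1, isocitrate lyase of the same cycle, had a log2 change of 0.03 (SE 0.09).

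Glycogen and trehalose genes had a positive log2 change in 16 of 17, where 2655 of the 5375 genes tested had one. Their median was 0.10, with medians of 0.19 in deletion replicate 2 and 0.03 in deletion replicate 4. In replicate 4, 12 of 17 were above the WT mean, as were 2134 of the 5375 genes tested. The deletion lay above WT in 5 and below it in none (10.6% and 13.0% of all genes). In TPS3, a regulatory subunit gene of the trehalose synthase complex, the levels were 7.47 and 8.92 RPKM in WT and 11.1 and 9.17 RPKM in the deletion (log2 change 0.27, SE 0.22). No gene of the list was called in limma or under 0.05 before adjustment. The 4 mitochondrially encoded genes tested, of 8, had a median of 0.09 with all groups overlapping.

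Proteasome subunits showed how the deletion libraries could cancel. The median over all 34 was -0.01, made of 0.23 in deletion replicate 2 and -0.25 in deletion replicate 4. In replicate 2, 32 of 34 were above the WT mean, and in replicate 4 none was. Of the 5375 genes tested, 3034 were above it in replicate 2 and 2134 in replicate 4. The base particle gene RPT6 stood at 218 and 215 RPKM in WT and at 240 and 171 RPKM in deletion replicates 2 and 4. Heat shock and chaperone genes had a median of -0.03 over 25. HSP12, a membrane-stabilising stress protein gene, stood at 2476 and 2434 RPKM in WT and at 3520 and 2215 RPKM in the deletion. Neither list had a gene called in limma or under 0.05 before adjustment.

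Among 38 autophagy genes tested of 39 the median was -0.01, with none under 0.05 before adjustment. The deletion was above WT in 4 and below it in 2 (10.6% and 13.0% of all genes). ATG8, the ubiquitin-like protein of autophagosomes, stood at 6128 and 5687 RPKM in WT and 6832 and 6127 RPKM in the deletion. Amino acid biosynthesis genes had a median of 0.05 over the 63 tested of 68. ARO4, an enzyme of aromatic amino acid synthesis, was the 1 gene of that list under 0.05 before adjustment (log2 change 0.67, SE 0.27). Of the 33 mRNA decay factors, with a median of 0.02, LSM1, a subunit of the decapping activator ring, was the 1 such gene (log2 change 0.45, SE 0.18), and XRN1, the main cytoplasmic 5′ to 3′ exonuclease, had a log2 change of 0.06 (SE 0.25). None of these was called in limma.

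Markers of other cell states and of the strains differed little in sum. Of 22 markers of haploid or mating cells, 16 were tested, with a median of -0.05. The deletion was above WT in 1 and below it in 2 (10.6% and 13.0% of all genes). The summed level of the list was 1646 to 1677 RPKM in WT and 1519 to 1612 RPKM in the deletion. MFA1 and MFA2 belong to this list, while the pheromone gene MF(ALPHA)2 was at 0 RPKM in all but deletion replicate 4, at 0.806 RPKM. Of 15 markers of dividing cells, 9 were tested, with a median of 0.03 and a summed level of at most 171 RPKM in WT and 156 to 170.2 RPKM in the deletion. The strain marker genes LEU2 and HIS3 were at 0 RPKM in all 4 libraries and TRP1 was at 0.615 to 1.60 RPKM. URA3 and LYS2 had log2 changes of -0.06 (SE 0.14) and 0.13 (SE 0.13).

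**Figure D5:**
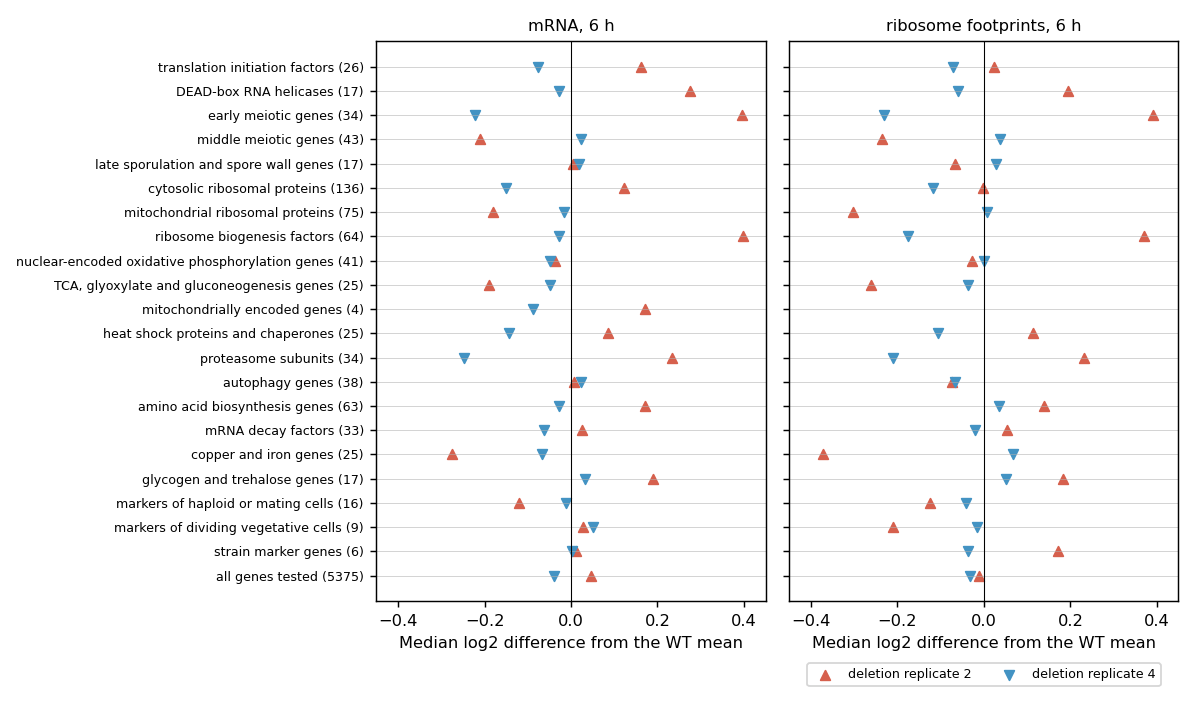
For each gene list (number of members tested in mRNA in brackets) the median log2 difference from the WT mean is given for deletion replicate 2 (red) and deletion replicate 4 (blue), in mRNA (left) and footprints (right). Early meiotic genes (0.40 and -0.22 in mRNA) and proteasome subunits (0.23 and -0.25) lie on opposite sides of WT in the deletion libraries, in footprints as in mRNA.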

How the data were processed

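Per the labels, mRNA was cut to 50 nt fragments and sequenced through linker ligation and circularisation. The authors deposited RPKM values, with a column for each library. Per the submitters' processing notes, the tools were CASAVA, bcl2fastq 2.17 and Bowtie2, without their roles. How reads were counted, on which build and annotation, is not given in the sources used here. Gene names and gene order came from the table and RefSeq assembly R64 (5994 of 6679 IDs matched).

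The test was limma 3.58.1 (R 4.3.3, lmFit and eBayes with a trend, two-sided) of log2(RPKM + 1) for genes averaging 5 RPKM or more, over the 4 libraries alone, with Benjamini-Hochberg adjustment over all genes and a threshold of 0.05. Footprint libraries (4619171 to 5789194 reads) were fitted apart in the same way. The steps were tested on simulated data. Lists were described without a set test.

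Whole reads were recovered from the RPKM values for all 6679 genes (100.0%, tolerance 0.02 reads). Where a RefSeq length was usable, 60 nt were taken from it. For the other genes, the shortest length that gave whole reads was searched for. Recovery in those genes is thus no evidence for the 60 nt. Without molecular identifiers, PCR reads are not independent molecules, and intervals cover counting error only. Every pair of libraries differed by more than sampling noise (mean chi-square per gene of at least 4.66 over genes with at least 20 reads), so none was counted as deposited more than once.

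The members and the 21 lists were chosen with earlier results of these data known. Genes were named by a rule. It takes DBP1, DED1, MRP51, VPS30 and YPL119C-A. Per direction it adds up to 10 genes past the threshold, filled up with those of smallest p at a mean of at least 20 RPKM, and up to 5 of largest change (at least 1). It also adds representatives of each list and up to 4 list members of smallest p. As alternatives, the fit was repeated with a pseudocount of 5 RPKM, no filter, a filter of 20 RPKM, rescaling by the median ratio, no trend, limma-voom on the recovered reads, the WT 3 h libraries added, and leaving out each library. A block of sample numbers was added after the data were seen. Python 3.11.15 with matplotlib 3.10.9 drew the figures.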

Additional observations from a re-analysis of the deposited data

Results flagged for a closer look

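Footprint reads on YPL119C-A lie outside the mRNA measurement and were above the level of the control samples. At 6 h deletion replicate 2 held 39 of them and deletion replicate 4 held 29, against 1 and 2 in WT replicates 3 and 4. The deletion held 20.9-fold more by summed reads (95% exact binomial interval 6.85 to 104, counting error only). With 2 libraries per group, no group was large enough to test for an outlying sample.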

How the results depend on the processing

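Genes called higher numbered 0 with no filter on low values, 0 without the trend and 0 by limma-voom, and genes called lower 0 with a filter of 20 RPKM, under which DBP1 was not tested. The log2 change of YPL119C-A was 1.40, 1.40 and 1.41 in the first 3 of these and did not pass. The median of strain marker genes was 0.014 with no filter. Leaving out each library in turn gave 0 to 78 genes called higher, 0 to 27 called lower, -4.72 to -4.07 for DBP1 and 1.38 to 1.41 for YPL119C-A. Signs turned between libraries for DED1 (-0.15 to 0.030), VPS30 (-0.15 to 0.13), CDC33 (-0.18 to 0.59), TIF4631 (-0.18 to 0.060), DBP2 (-0.11 to 1.04), DHH1 (-0.11 to 0.14), SUB2 (-0.17 to 0.41), IME1 (-0.28 to 0.35), ZIP1 (-0.22 to 0.42), DMC1 (-0.26 to 0.35), NDT80 (-0.29 to 0.014), CLB3 (-0.093 to 0.061), SSP2 (-0.033 to 0.031), LDS2 (-0.058 to 0.11), RPL3 (-0.18 to 0.50), UTP4 (-0.24 to 0.56), NOP1 (-0.42 to 1.33), COX4 (-0.15 to 0.081), CYC1 (-0.10 to 0.19), CIT1 (-0.28 to 0.027), PCK1 (-0.19 to 0.16), HSP12 (-0.15 to 0.52), HSP104 (-0.13 to 0.17), PRE1 (-0.29 to 0.23), RPN11 (-0.17 to 0.16), ARG1 (-0.078 to 0.032), HIS4 (-0.12 to 0.15), XRN1 (-0.27 to 0.40), STE2 (-0.20 to 0.18), STE3 (-0.18 to 0.074), CLB2 (-0.0018 to 0.17), RPT6 (-0.34 to 0.15) and CUP1-1 (-3.33 to 0.57). List medians ranged from -0.077 to 0.16 for translation initiation factors, -0.028 to 0.28 for DEAD-box RNA helicases, -0.22 to 0.40 for early meiotic genes, -0.21 to 0.024 for middle meiotic genes, -0.058 to 0.022 for late sporulation and spore wall genes, -0.15 to 0.12 for cytosolic ribosomal proteins, -0.18 to -0.015 for mitochondrial ribosomal proteins, -0.027 to 0.40 for ribosome biogenesis factors, -0.090 to 0.030 for nuclear-encoded oxidative phosphorylation genes, -0.19 to -0.045 for TCA, glyoxylate and gluconeogenesis genes, -0.089 to 0.22 for mitochondrially encoded genes, -0.14 to 0.085 for heat shock proteins and chaperones, -0.25 to 0.23 for proteasome subunits, -0.042 to 0.056 for autophagy genes, -0.028 to 0.17 for amino acid biosynthesis genes, -0.063 to 0.065 for mRNA decay factors, -0.28 to -0.067 for copper and iron genes, 0.033 to 0.19 for glycogen and trehalose genes, -0.12 to -0.010 for markers of haploid or mating cells, -0.058 to 0.14 for markers of dividing vegetative cells, -0.038 to 0.012 for strain marker genes and -0.038 to 0.046 for all genes tested. The cause was not tested. No paired analysis was possible because the groups share only replicate number 4. A block that sets sample numbers 2 and 4 apart from 6 and 8, a pairing the labels do not state and chosen after seeing the data, gave 2 genes higher and 2 lower by limma, DBP1 and YPL119C-A with YDL218W (adjusted p = 0.045) and YGR174W-A (adjusted p = 0.012). YGR174W-A stood at 42.0 and 19.0 RPKM in WT replicates 3 and 4 and at 10.9 and 4.07 RPKM in deletion replicates 2 and 4. Its values differed widely within each strain, and its reads are not given here. With 95% intervals, not adjusted for the number of genes, that reach a median of 0.40 to each side, smaller differences were mostly not detectable. Larger ones could also fail to pass, as MFA1 did at -0.79 (SE 0.14). The few calls therefore set no limit of 0.40 on differences between the strains.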

Other observations

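The mRNA library labelled deletion 3 h replicate 2 entered no fit above. It stood at 0.913 on the sporulation course, close to the 6 h libraries and far from the other deletion mRNA library labelled 3 h, at 0.0612. Over the 5375 genes it differed from deletion 6 h replicate 2 by a median of 0.160 on the log2 scale, from deletion 6 h replicate 4 by 0.278, and from WT replicates 3 and 4 by 0.274 and 0.239. At least 1 separated 19 genes from deletion 6 h replicate 2 and 188 from deletion 6 h replicate 4.

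Several genes that set deletion replicate 2 apart had like values in that library (genes named after their values were seen). DIT1, the spore wall enzyme gene, stood at 292 RPKM in it and at 284 RPKM in deletion 6 h replicate 2. DDR2, the stress gene, stood at 885 RPKM beside 769 RPKM, and YDL218W at 62.5 RPKM beside 60.2 RPKM. SIT1, the siderophore transporter gene, stood at 48.1 RPKM beside 53.9 RPKM, and GPM1 at 28.7 RPKM beside 25.7 RPKM. COX17 was less alike, at 16.5 RPKM beside 33.5 RPKM. The labels give both libraries the replicate number 2, and whether they came from 1 culture or time point was not tested.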
